A study of Mus musculus with 24 samples.

Results

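The 7 MHC class II genes described here were H2-Aa, H2-Ab1, H2-Eb1, Cd74, H2-DMa, H2-DMb1 and Ciita, taken by name, with no threshold on a measured value, from the 53465 genes of the count table. The 24 tumors were allografts of the BURP series, 3 from each of 8 lines. Each line began as a bladder tumor of 1 C57BL/6NTac mouse whose drinking water held 0.1% BBN, a bladder carcinogen, from the age of 8 weeks for at most 36 weeks, and was then carried under the skin of hosts of the same strain and sex with an intact immune system. The labels gave each tumor's line. The study's own classification gave the subtype and the sex: BURP-12BaSq, BURP-17BaSq and BURP-18BaSq were basal/squamous (Ba/Sq) lines from male mice, BURP-21BaSq, BURP-24BaSq and BURP-25BaSq were Ba/Sq lines from female mice, and the stroma-rich BURP-16SR and the neuroendocrine-like BURP-19NE came from male mice. Tumors of a line descend from 1 donor, so p-values measured the spread between tumors, and BURP-16SR and BURP-19NE were each a subtype represented by 1 line. The study's classifier did not place all tumors of BURP-16SR in the stroma-rich class, and put part of them in the neuroendocrine-like class. Tumors are named here as their labels name them, for example C80-M1 or P5. Labels such as P2, P4 or P5 were read as the passage of the tumor, and the labels of the other tumors give no passage. Per the study, the tumors came from passages p2 to p5. A difference between tumors of a line could therefore not be told apart from one of passage.

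MHC class II molecules carry peptides from proteins broken down in endosomes to the cell surface, where CD4 T cells read them. Dendritic cells, macrophages and B cells make them all the time, and epithelial and other cells can be brought to make them by interferon-gamma. H2-Aa and H2-Ab1 encode the alpha and the beta chain of the mouse molecule I-A, and H2-Eb1 encodes the beta chain of I-E. C57BL/6 mice carry a defective gene for the alpha chain of I-E and show no I-E at the cell surface, although H2-Eb1 is transcribed. Cd74 is the invariant chain, which fills the peptide groove on the way to the endosome, and H2-DMa and H2-DMb1 form the H2-DM dimer, which helps peptides take its place. Ciita is the transactivator that joins the factors RFX, NF-Y and CREB on the promoters of these genes and without which they are hardly transcribed. RNA of a whole tumor mixes cancer cells with host cells, and fewer cells of a type and less RNA per cell cannot be told apart in it.

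On GRCm38, 5 of the genes lay in 1 stretch of chromosome 17: H2-DMa from 34119541 to 34139101, H2-DMb1 from 34153072 to 34160230, H2-Ab1 from 34257689 to 34269419, H2-Aa from 34282744 to 34287823 on the minus strand and H2-Eb1 from 34305867 to 34316674. Ciita lay on chromosome 16 from 10480059 to 10528418. H2-DMa overlapped Brd2 and Ciita overlapped Dexi, both on the opposite strand, and the use of strand in counting is not given in the sources used here. H2-Eb1 overlapped the antisense gene Gm20513, which had between 0 and 6 counts in a tumor. H2-DMb1 has a near-identical neighbour, H2-DMb2, so that the division of reads between them is uncertain.

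The promoters of H2-Aa and H2-Eb1 are shown because the chains they encode parted from each other in some tumors. The sequences come from RefSeq, build GRCm38.p6, run 5′ to 3′ along the gene and end at the last base before its start. Capitals mark 3 motifs that were searched on both strands: TGATTGG, the Y box that NF-Y binds, AACNGATG, part of an X box of the kind RFX binds, and TGACGTC, the core of a site for CREB.
H2-Aa, chr17:34287824-34288023, minus strand: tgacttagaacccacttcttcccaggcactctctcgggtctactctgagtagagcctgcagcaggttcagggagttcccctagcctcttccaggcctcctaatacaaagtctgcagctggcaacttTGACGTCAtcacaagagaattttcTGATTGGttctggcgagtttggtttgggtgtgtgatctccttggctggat
H2-Eb1, chr17:34305667-34305866, plus strand: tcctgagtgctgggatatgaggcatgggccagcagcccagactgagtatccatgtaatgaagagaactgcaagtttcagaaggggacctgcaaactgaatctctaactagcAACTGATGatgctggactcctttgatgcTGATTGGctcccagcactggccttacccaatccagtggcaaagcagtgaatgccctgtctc
In H2-Aa the Y box began 50 bases before the start, and TGACGTC was found 74 bases before it and, overlapping on the other strand, 73 bases before it. In H2-Eb1 the Y box began 61 bases and the X-type motif 89 bases before the start.

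H2-DMb1 held the same pair of motifs, at 63 and 92 bases before its start, and the short stretches around the pair are set beside those of H2-Eb1 because both genes shifted against the other 5 in BURP-19NE.
H2-Eb1, chr17:34305772-34305791: actagcAACTGATGatgctg
H2-DMb1, chr17:34153093-34153112: cctagtAACTGATGatgcta
H2-Eb1, chr17:34305802-34305816: atgcTGATTGGctcc
H2-DMb1, chr17:34153124-34153138: tcagTGATTGGtctg
Of 32851 promoter windows of 250 bases in the same table, 7.23% held TGATTGG, 1.98% held AACNGATG, 2.78% held TGACGTC and 0.146%, or 48 windows, held the first 2 together. None of the 3 motifs was found in either of the 2 windows of H2-DMa, and other forms of these boxes were not searched. The windows of H2-DMb2 and H2-Eb2 also held the pair. H2-Ab1, Cd74 and Ciita had no window in the table.

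Total counts ranged from 9295708 to 25370320 per tumor with a median of 17693147, and a level of 3 counts, taken as the floor, lay between 0.110 and 1.28 CPM, that is, counts scaled to a common library size. In C102-M30 of BURP-25BaSq 61.9% of all counts fell on the ribosomal RNA gene CT010467.1. Over 21383 genes, 21 of 24 tumors were closer in log2 CPM to the other tumors of their own line than to any other line. C102-M1, labelled BURP-25BaSq, had a mean correlation of 0.893 with its own line and 0.968 with BURP-21BaSq, whereas C102-M3 of BURP-25BaSq and C165-M30 of BURP-17BaSq differed by less (0.913 against 0.915, and 0.9251 against 0.9255). All 3 were kept as labelled, and calls that turn on them are given where they occur. The markers of basal squamous epithelium, Krt5, Krt14, Krt6a, Trp63, Dsg3 and Epcam, summed to between 8282 and 21277 CPM in the Ba/Sq tumors. They summed to no more than 1.89 CPM in those of BURP-16SR and BURP-19NE. By immunohistochemistry the study reported TP63, the protein of Trp63, as high in BURP-19NE and present in some cells of BURP-16SR.

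All 7 class II genes, including Cd74, whose gene lies on chromosome 18, were detected in all 24 tumors. Per kilobase of transcript, Cd74 had the highest mean level, 159 CPM per kilobase, and was followed by H2-Aa with 82.2, H2-Ab1 with 75.7 and H2-Eb1 with 48.2. The H2-DM chains were lower, at 12.6 for H2-DMb1 and 4.57 for H2-DMa, and Ciita was lowest with 2.45 CPM per kilobase. From here on levels are CPM and not per length, so that they compare tumors and not genes. Over the 24 tumors the mean was 225 ± 169 CPM (SD, n = 24) for Cd74, 92.8 ± 71.2 for H2-Aa, 91.8 ± 68.4 for H2-Ab1 and 80.4 ± 51.9 for H2-Eb1. It was 17.7 ± 9.16 CPM for H2-DMb1, 14.7 ± 11.2 for Ciita and 9.16 ± 6.79 for H2-DMa.

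The tumors covered a wide range. P5 of BURP-21BaSq had the highest level of each of the 7 genes, with 585 CPM for Cd74, 257 for H2-Aa and 41.2 for Ciita. P5 of BURP-16SR had the lowest level of 4 of them, with 6.45 CPM for Cd74, 1.54 for H2-Aa, 2.66 for H2-Ab1 and 0.631 for Ciita. H2-Eb1 was lowest in C148-M3 of BURP-18BaSq, at 6.66 CPM, and the H2-DM chains were lowest in C165-M30 of BURP-17BaSq, at 0.993 for H2-DMa and 1.66 for H2-DMb1. The highest tumor exceeded the lowest 167-fold for H2-Aa, 94.4-fold for H2-Ab1, 90.7-fold for Cd74 and 65.3-fold for Ciita, and by less for H2-Eb1 (27.7-fold), H2-DMa (26.2-fold) and H2-DMb1 (23.5-fold).

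**Figure D1:**
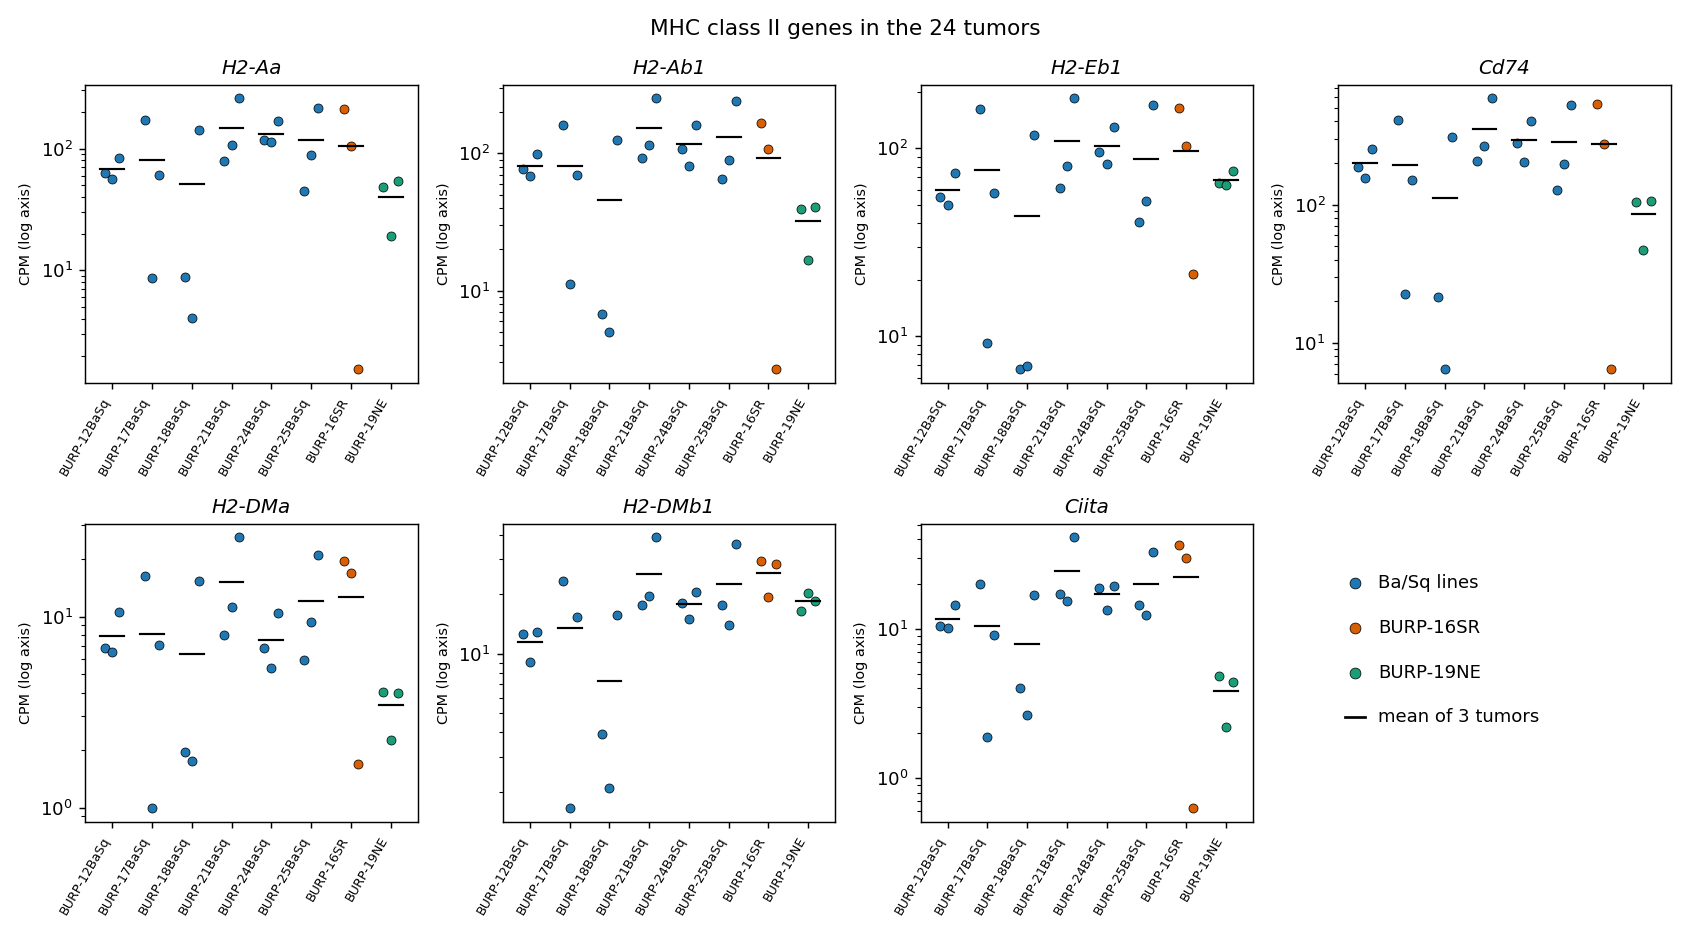
Level of each class II gene (CPM, log axis) in the 3 tumors of each BURP line, with 1 point per tumor and a bar for the mean of the 3. Within BURP-16SR, BURP-17BaSq and BURP-18BaSq the tumors lay up to 136-fold apart for H2-Aa, whereas those of BURP-12BaSq lay within 1.49-fold.

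Much of this range lay within lines. H2-Aa in BURP-18BaSq was 8.75 CPM in C148-M3, 4.10 in C149-M3 and 141 in P4. In BURP-17BaSq it was 172 CPM in C152-M1, 8.69 in C165-M30 and 60.2 in P4, and in BURP-16SR it was 209 in C73-M10, 105 in C74-MNT and 1.54 in P5. Each of these lines thus held tumors that were high and tumors that were low. BURP-12BaSq, in contrast, had 62.7, 84.0 and 56.6 CPM in its 3 tumors, and BURP-24BaSq had 116, 112 and 169. The highest over the lowest tumor of a line came to 136-fold in BURP-16SR, 34.5-fold in BURP-18BaSq and 19.8-fold in BURP-17BaSq for H2-Aa, and to 1.49-fold in BURP-12BaSq. H2-DMb1 did not follow in BURP-16SR, where its 3 tumors had 29.5, 19.4 and 28.3 CPM and lay within 1.52-fold.

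On the log2 scale the SD within lines was 1.91 for H2-Aa, 1.83 for Cd74, 1.71 for H2-Ab1, 1.44 for Ciita, 1.34 for H2-Eb1, 1.27 for H2-DMa and 0.95 for H2-DMb1, against a median of 0.47 over 21383 genes. These values stood at the 99.0th percentile of all genes for H2-Aa, the 98.7th for Cd74 and the 83.9th for H2-DMb1, with the other 4 genes between the 93.3rd and the 98.2nd. The share of the sum of squares that lay between the 8 line means ran from 27.9%, for H2-Aa, to 48.1%, for H2-DMb1, whereas the median gene had 68.9%. With 3 tumors per line this share is well above 0 even where lines do not differ.

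In edgeR's quasi-likelihood F test across the 8 lines, 0 of 7 class II genes passed at an adjusted p under 0.05, while 76.7% of all genes tested did. The lowest edgeR adjusted p was 0.175, for Ciita, the highest 0.884, for H2-Eb1, and 0 of 7 had an unadjusted p under 0.05. The likelihood ratio test of DESeq2 also called 0 of 7. Without P5 of BURP-16SR, Ciita passed with an edgeR adjusted p of 0.0178, and without P4 of BURP-18BaSq, H2-DMb1 passed with 0.0227. Across the 6 Ba/Sq lines alone, 0 of 7 passed in edgeR, against 50.5% of all genes, with adjusted p between 0.267 for H2-DMb1 and 0.803 for H2-Eb1, 0 unadjusted p under 0.05 and 0 calls in DESeq2. Here too P4 of BURP-18BaSq decided: without it H2-Aa, H2-Ab1 and Cd74 passed, with edgeR adjusted p of 0.0374, 0.0198 and 0.0383.

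When the 8 line means were put in order for each gene, BURP-21BaSq was first for H2-Aa (148.01 ± 95.7 CPM; SD, n = 3), followed by BURP-24BaSq (132 ± 31.5), BURP-25BaSq (117 ± 88.8), BURP-16SR (105 ± 104), BURP-17BaSq (80.2 ± 83.3), BURP-12BaSq (67.8 ± 14.4), BURP-18BaSq (51.4 ± 77.9) and BURP-19NE (40.3 ± 18.6). For Ciita the order was BURP-21BaSq (24.6 ± 14.4 CPM), BURP-16SR (22.3 ± 19.1), BURP-25BaSq (19.9 ± 11.4), BURP-24BaSq (17.2 ± 3.25), BURP-12BaSq (11.7 ± 2.47), BURP-17BaSq (10.4 ± 9.20), BURP-18BaSq (7.88 ± 7.86) and BURP-19NE (3.85 ± 1.43). For the 7 genes together the tumors of all 49 neighbouring pairs of lines overlapped, and in 48 of these pairs the means lay closer than the larger SD. The exception was the step in Ciita from BURP-24BaSq to BURP-12BaSq.

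BURP-19NE was compared with the 18 Ba/Sq tumors to ask how the class II genes stood in the neuroendocrine-like subtype. Ciita was 4.88 CPM in C80-M1, 2.21 in C80-M3 and 4.45 in C80-M30, and in the Ba/Sq tumors it ran from 1.90 through a median of 14.5 to 41.2 CPM. The 3 tumors of BURP-19NE lay in the lower part of that range but did not leave it. The fitted difference was -1.98 ± 0.68 on the log2 scale (SE), from means of 3.85 ± 1.43 and 15.3 ± 9.73 CPM (SD, n = 3 and 18), with an edgeR adjusted p of 0.0281. Ciita was thereby the 1 of 7 genes past both thresholds used for pairs of groups, an adjusted p under 0.05 and a change above 2-fold. Of all genes tested, 24.3% passed both, and 15% did so with a lower level in BURP-19NE.

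The call for Ciita rested on all 3 tumors of BURP-19NE. Its edgeR adjusted p became 0.0642 without C80-M1, 0.128 without C80-M3 and 0.0691 without C80-M30, with log2 differences of -2.21, -1.73 and -2.13. In a fit of all 24 tumors it was 0.0565, and 0 of 7 genes were called. DESeq2 called 3 of 7, Ciita, H2-DMa (adjusted p = 0.0381) and H2-Ab1 (adjusted p = 0.0441). Without C102-M1 the edgeR adjusted p of Ciita was 0.0270.

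The other 6 genes fell into 2 kinds. H2-Ab1, with 39.3, 16.7 and 40.99 CPM in C80-M1, C80-M3 and C80-M30, differed from the Ba/Sq tumors by -1.64 ± 0.83 on the log2 scale (SE; edgeR adjusted p = 0.131). Cd74, with 104, 46.9 and 106 CPM, gave -1.47 ± 0.85 (0.186), H2-DMa, with 4.03, 2.26 and 3.99 CPM, gave -1.47 ± 0.70 (0.110; unadjusted 0.0468), and H2-Aa gave -1.29 ± 0.84 (0.243). H2-Eb1 and H2-DMb1 had differences near 0. H2-Eb1 was 65.2, 63.4 and 75.7 CPM in BURP-19NE and between 6.66 and 184 CPM, with a median of 67.9, in the Ba/Sq tumors, a difference of -0.22 ± 0.69 (0.832). H2-DMb1 was 16.4, 20.4 and 18.4 CPM against 1.66 to 38.8 CPM with a median of 15.6, a difference of 0.17 ± 0.57 (0.840). The median difference of the 7 genes was -1.47, and that of all genes tested was -0.14. All 7 genes overlapped between the groups, whereas 18% of all genes tested did not.

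**Figure D2:**
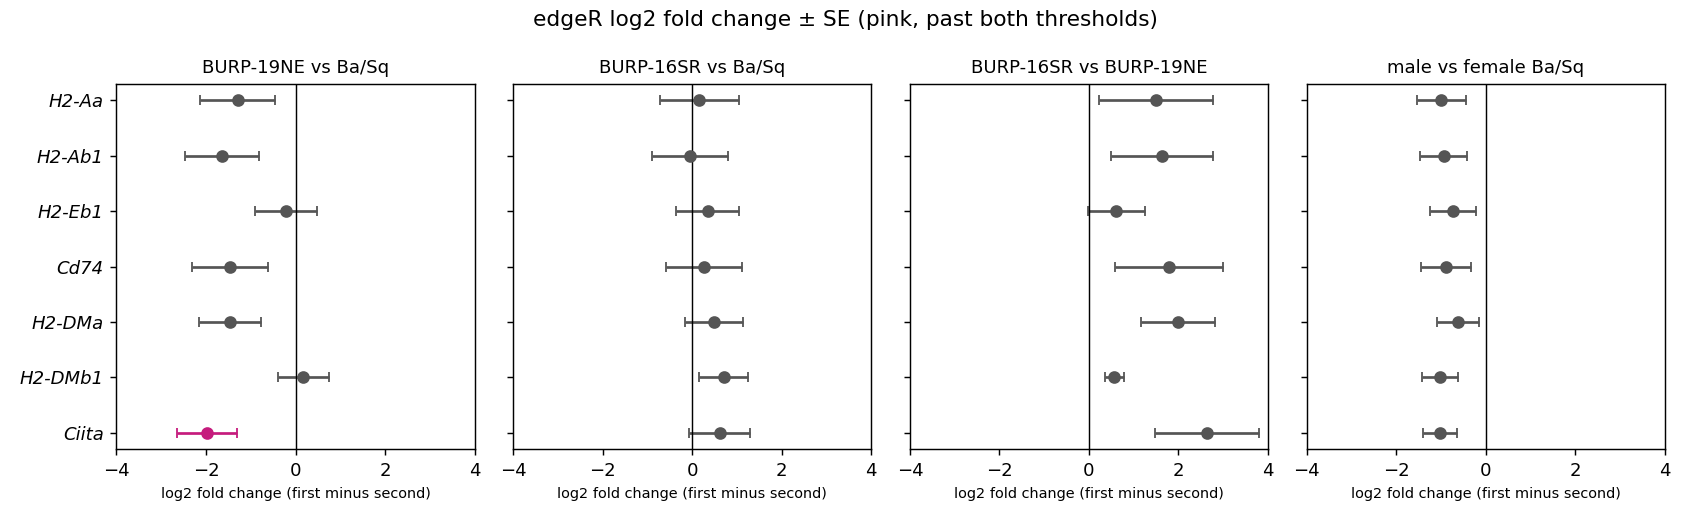
Fitted log2 fold change of each class II gene in 4 comparisons (points) with its standard error (bars), the first group minus the second, where pink marks a gene past both thresholds. Ciita in BURP-19NE against the Ba/Sq lines, at -1.98, was the 1 gene past them.

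The ratio of 2 genes within a tumor does not depend on the tumor's library size, so the counts of each pair of members were compared as log2 ratios between the 3 tumors of a line and the 18 Ba/Sq tumors. These ratios were added after the levels had been seen. Each of the 42 comparisons, 21 pairs in each of BURP-19NE and BURP-16SR, was tested by a two-sided exact permutation test over 1330 splits of the tumors, whose smallest possible p is 7.52e-04, and adjusted over the 42. The 18 Ba/Sq tumors are not independent, since 3 share each donor, and with lines as units the smallest p would be 0.143.

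Proportions of the members varied among the Ba/Sq tumors by an amount that depended on the pair. The log2 ratio ran from -0.53 to 0.47 for H2-Aa to H2-Ab1 but from 1.89 to 5.35 for Cd74 to H2-DMa and from 0.61 to 3.12 for H2-Aa to Ciita. There were 0.873 ± 0.231 counts (SD, n = 18) of H2-Eb1 for each count of H2-Aa, with line means from 0.749 to 1.10, and 1.83 ± 0.553 counts of H2-DMb1 for each count of H2-DMa, with line means from 1.41 to 2.45. In BURP-19NE H2-Eb1 came to 1.36, 3.34 and 1.41 counts per count of H2-Aa in C80-M1, C80-M3 and C80-M30, against 0.589 to 1.69 in the Ba/Sq tumors. H2-DMb1 came to 4.06, 9 and 4.6 counts per count of H2-DMa, against 1.02 to 2.99. For the H2-DM chains the 3 tumors thus lay above all 18 Ba/Sq tumors, and for H2-Eb1 and H2-Aa 1 tumor did.

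Of the 21 pairs, 11 differed between BURP-19NE and the Ba/Sq tumors at an adjusted p under 0.05 in the exact permutation test. Ratios of genes other than the members and Ptprc were not tested, so how often other pairs differ in this line is not known. Of single genes, 24.3% passed both thresholds by edgeR between these groups and 18% did not overlap. All 10 pairs that set H2-Eb1 or H2-DMb1 against one of the other 5 genes were among them, and in 5 of these 10 the tumors did not overlap. H2-Eb1 and H2-DMb1 were set apart after the levels of the same tumors had been seen. The 10 ratios share genes, so they are not 10 separate results. Among the other 5 genes the tumors did not overlap for Cd74 against Ciita, which did not pass (exact p of 0.102, adjusted to 0.182). H2-DMb1 rose against Ciita by 2.26 on the log2 scale, from a mean of 0.07 ± 0.26 (SD, n = 18) to 2.33 ± 0.77 (n = 3), and H2-Eb1 rose against Ciita by 2.01, both without overlap and with an exact p of 7.52e-04, adjusted to 0.00632. The same p and adjusted p were obtained for H2-DMa against H2-DMb1 (-1.65), H2-Ab1 against H2-Eb1 (-1.49) and H2-Eb1 against H2-DMa (1.40), again without overlap. For H2-Aa against H2-Eb1 the difference was -1.12, with an exact p of 0.00226, adjusted to 0.0135, and it was -0.70 without C80-M3.

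The ratio of H2-Eb1 to H2-DMb1 itself differed by -0.26, with an exact p of 0.435, adjusted to 0.508, and did not pass. Of the 10 pairs among H2-Aa, H2-Ab1, Cd74, H2-DMa and Ciita, 1 passed, H2-DMa against Ciita, with a difference of 0.61 and an exact p of 0.0120, adjusted to 0.0459. Without C80-M3 that pair (0.53) and H2-Aa against H2-DMb1 (-0.83, from -1.38 with all tumors) no longer had an unadjusted exact p under 0.05. The promoters of H2-Eb1 and H2-DMb1 both held the pair of X-type motif and Y box, in the stretches printed above. So did those of H2-DMb2 and H2-Eb2, whose levels in BURP-19NE were at most 0.637 and 0.0454 CPM. The windows of H2-Aa, H2-Oa and H2-Ob held the Y box without AACNGATG. Because AACNGATG is 1 fixed string, its absence does not mean that a promoter lacks an X box. H2-Ab1, Cd74 and Ciita had no promoter window to compare, and a part of the motifs in these ratios was not tested.

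**Figure D3:**
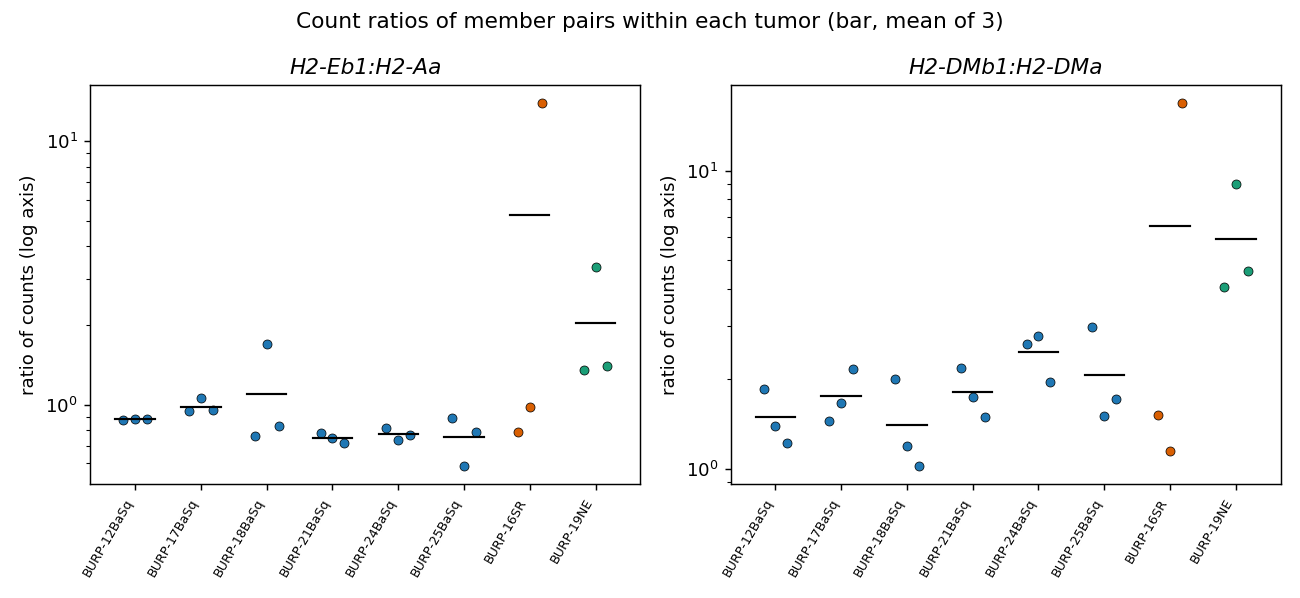
Ratio of the counts of H2-Eb1 to H2-Aa (left) and of H2-DMb1 to H2-DMa (right) in each tumor (log axis), with a bar for the mean of the 3 tumors of a line. P5 of BURP-16SR, at 13.95 and 16.8, and the tumors of BURP-19NE stand above most or all of the Ba/Sq tumors.

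In BURP-16SR, the stroma-rich line, the class II genes split the 3 tumors. C73-M10 had 536 CPM of Cd74, 209 of H2-Aa and 36.3 of Ciita, C74-MNT had 275, 105 and 30.02, and P5 had 6.45, 1.54 and 0.631. Both former tumors lay in the upper part of the Ba/Sq range and P5 lay below it in all 3 genes. H2-DMb1, at 28.3 CPM in P5, was close to the 29.5 CPM of C73-M10. H2-Eb1, at 21.5 CPM, was 7.65-fold below C73-M10 but above 3 Ba/Sq tumors, and its log2 ratio to H2-DMb1, -0.40, lay below that of all Ba/Sq tumors, from 0.77 to 2.90. The ratios in P5 were 13.95 counts of H2-Eb1 per count of H2-Aa and 16.8 of H2-DMb1 per count of H2-DMa. In C73-M10 these ratios were 0.787 and 1.52 and in C74-MNT 0.984 and 1.15, within the Ba/Sq range. With the 3 tumors this far apart, 0 of 21 pairs passed the exact permutation test after adjustment, and 4 had an unadjusted p under 0.05.

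Against the Ba/Sq tumors, 0 of 7 class II genes passed in BURP-16SR by edgeR, where 19.2% of all genes did, and 0 had an unadjusted p under 0.05. DESeq2 called 0 as well. The log2 differences ran from -0.06 ± 0.84 (SE) for H2-Ab1 to 0.71 ± 0.55 for H2-DMb1, with edgeR adjusted p of 0.366 or more. A single tumor set the sign of several: without C73-M10 the difference was -0.83 for H2-Aa, -0.70 for Cd74 and -0.30 for H2-Eb1, and without P5 it was 0.42 for H2-Ab1. Single Ba/Sq tumors also turned signs of differences near 0, to 0.0658 and 0.0745 for H2-Ab1 without C102-M1 or P5 of BURP-21BaSq, and to -4.62e-04 for H2-Aa without C148-M3.

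The 2 tumors with high class II levels in BURP-16SR also had high levels of leukocyte genes. Ptprc, the gene of CD45, which all leukocytes carry, was 154 CPM in C73-M10, 108 in C74-MNT and 10.03 in P5, and T cell markers, 10 genes, summed to 41.4, 57.9 and 2.03 CPM. In P5 the T cell genes Cd3e, Cd3d and Cd3g and the dendritic cell gene Flt3 were at 0. The B cell markers, 10 genes, summed to 420 CPM in C73-M10, 15.9 in C74-MNT and 3.44 in P5, against at most 16.01 in any Ba/Sq tumor, and Cd79a, part of the B cell receptor, was 71.4 CPM in C73-M10 and no more than 2.58 elsewhere. The part of these cells in the class II levels was not tested.

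The remaining class II genes of the locus followed C73-M10. H2-Ob was 33.8 CPM in C73-M10, 1.56 in C74-MNT and 0.140 in P5, H2-DMb2 was 32.1, 4.38 and 0.210, and H2-Oa was 5.40, 0.391 and 0.0701. H2-Oa and H2-Ob encode H2-O, an inhibitor of H2-DM that B cells are known for. All 3 were higher in BURP-16SR than in the Ba/Sq tumors by edgeR, with log2 differences of 4.83 ± 0.75 (SE), 3.44 ± 0.79 and 2.81 ± 0.75 and adjusted p of 6.85e-05, 0.00313 and 0.00869, as were 8 of 8 tested B cell markers. Without C73-M10, 0 of the other class II genes and 0 of the B cell markers were called by edgeR. H2-Ea-ps, the annotated remnant of the I-E alpha chain gene, had 0 counts in all 24 tumors, which allows a level of up to between 0.110 and 1.28 CPM in a tumor.

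BURP-16SR and BURP-19NE were also compared directly. The differences were 2.64 ± 1.16 on the log2 scale (SE) for Ciita, 1.99 ± 0.82 for H2-DMa, 1.78 ± 1.21 for Cd74, 1.63 ± 1.15 for H2-Ab1 and 1.498 ± 1.27 for H2-Aa, all higher in BURP-16SR, and 0.61 ± 0.64 for H2-Eb1 and 0.57 ± 0.20 for H2-DMb1. By edgeR 0 of 7 passed, against 23.6% of all genes, and 2 had an unadjusted p under 0.05, H2-DMb1 (0.0287; adjusted 0.0716) and H2-DMa (0.0478; adjusted 0.103). P5 decided the count: without it 6 of 7, all but H2-DMb1, passed edgeR, with differences from 1.04 for H2-Eb1 to 3.17 for Ciita. DESeq2 called 2 of 7, Ciita and H2-DMa, and a fit of all 24 tumors by edgeR called Ciita with an adjusted p of 0.0435.

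BURP-24BaSq and BURP-16SR are the lines that the study treated with cisplatin. The 3 tumors of BURP-24BaSq were even, with H2-Aa at 116, 112 and 169 CPM and Ciita at 18.7, 13.5 and 19.4. For H2-Aa they lay between C74-MNT and C73-M10 of BURP-16SR, and for Ciita between P5 and C74-MNT. By edgeR 0 of 7 genes passed, where 29.0% of all genes did. The log2 differences, BURP-24BaSq minus BURP-16SR, were from 0.00 to 0.25 for H2-Aa, H2-Ab1, H2-Eb1 and Cd74, -0.46 ± 1.03 (SE) for Ciita, -0.82 ± 0.78 for H2-DMa and -0.59 ± 0.22 for H2-DMb1, which was the 1 gene with an unadjusted p under 0.05 (0.0323; edgeR adjusted p = 0.0746). DESeq2 called 0. Without P5 of BURP-16SR, H2-DMa was lower in BURP-24BaSq by 1.27 with an edgeR adjusted p of 0.0136.

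The 9 tumors of the male Ba/Sq lines were compared with the 9 of the female lines. Ciita in the male lines ran from 1.90 through a median of 10.1 to 20.2 CPM and in the female lines from 12.3 through 17.1 to 41.2. H2-DMb1 ran from 1.66 through 12.6 to 23.4 CPM in the male and from 14.04 through 18 to 38.8 in the female lines. For all 7 genes the mean was lower in the male lines and the tumors overlapped, whereas 0.463% of all genes tested did not overlap. The log2 difference, male minus female, was -1.02 ± 0.38 (SE) for Ciita (unadjusted p = 0.0153; edgeR adjusted p = 0.118) and -1.02 ± 0.40 for H2-DMb1 (0.0208; 0.136). For the others it lay between -0.62 ± 0.46, for H2-DMa, and -0.99 ± 0.55, for H2-Aa, with edgeR adjusted p from 0.293 to 0.451. By edgeR 0 of 7 passed, against 2.31% of all genes, 2 had an unadjusted p under 0.05, and DESeq2 called 0. With counts summed per line, which makes the donor the unit (3 against 3), 0 of 7 passed and 0 of all genes did.

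Across tumors the members rose and fell together in the Ba/Sq lines. Over the 18 Ba/Sq tumors Pearson's r of log2 CPM lay between 0.921 and 0.991 for the 21 pairs of members, as a description of tumors of which 3 share each donor. Over all 24 tumors the range widened to between 0.508 and 0.991. H2-DMb1 parted most, with r falling from 0.980 to 0.508 with Ciita and from 0.948 to 0.593 with H2-Aa when BURP-16SR and BURP-19NE were added, and H2-Eb1 parted less, with r falling from 0.943 to 0.761 with Ciita and from 0.988 to 0.883 with H2-Aa. The r of H2-Aa with Cd74 was 0.991 over the 18 tumors and 0.990 over the 24.

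The mean of the 7 genes, each centred on the log2 scale, was compared with every other gene. Among 15268 protein-coding genes, the 10 with the highest r over the 24 tumors were Aldh1b1 (0.918), Cd300c2 (0.917), Ptpn6 (0.915), Slamf8 (0.914), Tent5c (0.908), Dock10 (0.908), Cd52 (0.904), Ptprc (0.903), Sla (0.903) and Nlrp1b (0.901). Of these 10, Cd52 and Ptprc were in a marker list. Ptpn6 encodes the phosphatase SHP-1 of blood cells and Cd52 a surface protein of lymphocytes, while Aldh1b1 encodes a mitochondrial aldehyde dehydrogenase and reached no more than 1.86 CPM. Ciita alone was most like Nkg7 (0.924), Themis (0.917), Ikzf3 (0.914), Pdcd1 (0.912) and Tnfrsf14 (0.908), of which Nkg7, Themis, Ikzf3 and Pdcd1 are known from lymphocytes. Of the markers, Cd3e of T cells had an r of 0.837 with the 7 genes, Csf1r of macrophages 0.774, Flt3 of dendritic cells 0.722 and Cd79a of B cells 0.289. The genes of each marker list were also averaged, each centred on the log2 scale so that all genes of a list weighed the same. By these means, T cell markers (0.882) and dendritic cell markers (0.847) stood above macrophage (0.757), endothelial (0.570), fibroblast (0.542), plasma cell (0.530), B cell (0.447) and basal squamous epithelial markers (0.165). Over the 18 Ba/Sq tumors endothelial markers had an r of 0.798, close to macrophage markers with 0.812, and their part in the class II levels was not tested.

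**Figure D4:**
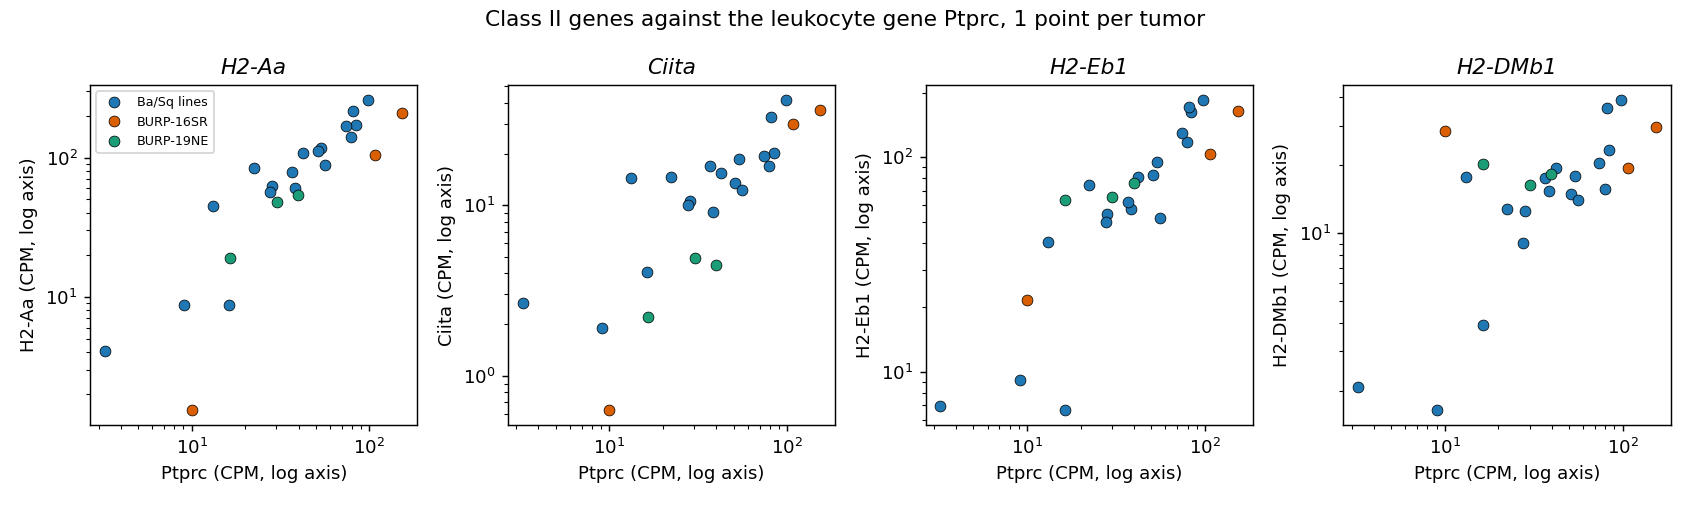
Level of H2-Aa, Ciita, H2-Eb1 and H2-DMb1 against that of Ptprc (CPM, both axes log) with 1 point per tumor. H2-Aa rises with Ptprc, which ranges from 3.26 to 154 CPM, in most tumors, and the tumors of BURP-19NE lie low for Ciita. In P5 of BURP-16SR, where Ptprc is 10.03 CPM, H2-Aa is low at 1.54 CPM and H2-DMb1 is at 28.3 CPM.

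Within lines Ptprc ranged as the class II genes did. In BURP-18BaSq it was 16.3 CPM in C148-M3, 3.26 in C149-M3 and 79.3 in P4, and in BURP-17BaSq it was 84.1 in C152-M1, 9.10 in C165-M30 and 38.4 in P4. The tumors low in H2-Aa in these lines were thus also low in Ptprc. The 5 pan-leukocyte genes Ptprc, Laptm5, Cd53, Coro1a and Cd52 summed to between 14.6 and 229 CPM in the Ba/Sq tumors, between 79.7 and 422 in BURP-16SR and between 50.7 and 92.5 in BURP-19NE, with none of the 5 at 0 in any tumor, and their part in the class II levels was not tested. By edgeR 1 of the 5, Cd53, passed across the 8 lines, and 0 of 5 passed across the 6 Ba/Sq lines or in BURP-19NE against the Ba/Sq tumors. The shares of all genes that passed in these comparisons were, in that order, 76.7%, 50.5% and 24.3%.

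Single markers of antigen-presenting cells and T cells passed both thresholds in BURP-19NE by edgeR, and not all in the same direction. The share of all genes tested that passed was 24.3%, and no marker list named below exceeded it. Of 9 dendritic cell markers tested, Itgax, the gene of CD11c, fell by 1.99 on the log2 scale (edgeR adjusted p = 0.0291, lost without each of the 3 tumors of BURP-19NE), and Zbtb46 rose by 1.15 (adjusted p = 0.0450 by edgeR, lost without any of 15 tumors). Of 10 macrophage markers Mertk, a receptor for dying cells, rose by 1.97 (edgeR adjusted p = 3.32e-05) and kept the call without any 1 tumor, while C1qa and Csf1r had differences of 0.11 and -0.16 (edgeR adjusted p = 0.912 and 0.884). Of 10 T cell markers Cd5 fell by 2.74 (edgeR adjusted p = 0.0351), a call lost without C80-M1, C80-M3 or C80-M30. The summed levels in the Ba/Sq tumors and in BURP-19NE were 13.99 to 75.2 and 21.04 to 26.7 CPM for the dendritic cell list, 29.9 to 776 and 225 to 288 for the macrophage list, and 3.09 to 43.7 and 4.68 to 14.4 for the T cell list. In C80-M3 Flt3 and Icos were at 0. The part of these cells in the level of Ciita was not tested.

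Set against Ptprc as a ratio of counts, 0 of 14 comparisons, 7 genes in each of BURP-19NE and BURP-16SR, passed the exact permutation test after adjustment over the 14. Ciita in BURP-19NE came closest. Its log2 ratio to Ptprc was -2.90 ± 0.27 (SD, n = 3) against -1.50 ± 0.69 (n = 18), a difference of -1.40 with an exact p of 0.00376, adjusted to 0.0526, and the tumors of BURP-19NE, from -3.16 to -2.63, lay below all Ba/Sq tumors, from -2.26 to 0.12. In the same tumors the ratio of H2-Eb1 to Ptprc differed by 0.61 and that of H2-Aa by -0.51. In BURP-16SR the log2 ratio to Ptprc differed by -1.71 for H2-Aa (exact p of 0.0143, adjusted to 0.0667) and -1.62 for H2-Ab1 (0.0113, adjusted to 0.0667). Cd74 gave -1.38, Ciita -1.14, H2-DMa -0.50 and H2-Eb1 -0.34, while H2-DMb1 went the other way with 0.31. P5 of BURP-16SR had 0.154 counts of H2-Aa per count of Ptprc, below all Ba/Sq tumors, from 0.536 to 3.76.

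The other genes of the pathway were taken as lists. Of the 7 genes for the factors on class II promoters, Rfx5, Rfxap, Rfxank, Nfya, Nfyb, Nfyc and Creb1, 0 passed both thresholds in BURP-19NE, in BURP-16SR or between the sexes by edgeR, where DESeq2 called 0 in each as well. The shares of all genes that passed by edgeR were 24.3%, 19.2% and 2.31%. Nfya, a subunit of NF-Y, had a difference of 0.70 ± 0.13 (SE) in BURP-19NE with an edgeR adjusted p of 2.16e-04, which is under the 2-fold threshold. Their median difference in BURP-19NE was 0.11 on the log2 scale, and Rfx5 was 34.1 ± 2.79 CPM there against 31.7 ± 7.15 in the Ba/Sq tumors (SD, n = 3 and 18). Across the 8 lines 6 of these 7 passed the F test, a share near the 76.7% of all genes.

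Some genes of the response to interferon-gamma, which induces Ciita, were lower in BURP-19NE. In the same comparison 24.3% of all genes tested passed both thresholds by edgeR, and 15% did so with a lower level in BURP-19NE. Among the genes for the receptor and its signal, Ifngr2, a chain of the receptor, fell by 1.23 on the log2 scale (edgeR adjusted p = 0.00607), the transcription factor Irf1 by 1.24 (adjusted p = 0.00757 by edgeR) and the feedback inhibitor Socs1 by 1.58 (edgeR adjusted p = 0.0153). Ifngr2 kept the call without any 1 tumor, whereas Irf1 lost it without C80-M3 and Socs1 without C80-M1 or C80-M3. Of 15 genes induced by interferon-gamma, 4 fell, Psmb8, Psmb9 and Psmb10 of the immunoproteasome and Nlrc5, the transactivator of class I genes, with differences from -1.21 to -2.04, and 1 rose, Ido1, an enzyme of tryptophan breakdown, from 8.85 ± 8.78 CPM to 54.8 ± 13.1. The count of 5 ranged from 1, without C80-M3, to 10, without C149-M3 of BURP-18BaSq, and DESeq2 called 10. Cxcl9 and Cxcl10 had differences of -3.05 and -2.45 with edgeR adjusted p of 0.0700 and 0.0625.

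Gbp2 and Irgm1, GTPases induced by interferon-gamma and among the most abundant of that list, had differences of -1.68 and -0.58 (edgeR adjusted p = 0.0630 and 0.306), and Jak1, which signals from the receptor, had 0.35 (0.0928).

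In the endosomal pathway that makes the peptides for class II, 1 of 8 genes fell in BURP-19NE by edgeR, Ifi30, a thiol reductase that unfolds antigens, by 1.76 on the log2 scale from 21.5 ± 6.25 CPM (SD, n = 18) to 6.28 ± 1.53 (n = 3), without overlap and with an adjusted p of 2.19e-04. The call was kept without any 1 tumor. Among all genes tested, 15% passed both thresholds with a lower level in BURP-19NE. The most abundant proteases of that list did not pass both thresholds, with differences of -0.87 for Ctsd (edgeR adjusted p = 0.0725), 0.63 for Ctsb (0.0503) and 0.99 for Ctsl (0.00912). Of the 6 genes of class I presentation, 4 fell in BURP-19NE by edgeR: Tapbp by 2.21 (adjusted p = 3.53e-05), Tap2 by 2.20 (adjusted p = 0.00136), Tap1 by 1.90 (adjusted p = 0.0133) and H2-K1 by 1.57 (adjusted p = 0.0498). B2m and H2-D1, which with H2-K1 make up class I molecules, had differences of -0.61 and -1.01 (edgeR adjusted p = 0.517 and 0.0637). Tapbp and Tap2, which load class I molecules and carry peptides to them, kept the call without any 1 tumor, while Tap1 lost it without C80-M1 or C80-M3 and H2-K1 without any of 16 tumors. In BURP-16SR, where 19.2% of all genes tested passed both thresholds, 0 of 6 class I genes passed by edgeR (1 by DESeq2). There 1 of 8 endosomal genes was higher, Ctsl, and 1 of 15 induced genes was lower, Nlrc5. Single tumors such as C73-M10 decided both calls. Jak2, which signals from the interferon-gamma receptor, was higher by 1.55 in BURP-16SR with an edgeR adjusted p of 3.57e-06 and kept the call without any 1 tumor.

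Between the male and the female Ba/Sq lines, 5 of the 15 induced genes were lower in the male lines by edgeR and 0 were higher. Of all genes tested, 2.31% were called in either direction. Cxcl9 and Cxcl10, chemokines that draw T cells, differed by -2.45 (adjusted p = 0.0241) and -2.02 (adjusted p = 0.0166), and Igtp, Gbp2 and Irgm2, interferon-inducible GTPases, by -1.46, -1.41 and -1.08. Cxcl9, Cxcl10 and Igtp kept the call without any 1 tumor, Gbp2 lost it without P2 of BURP-24BaSq, and Irgm2 lost it without any of 13 tumors, among them C102-M1. With counts summed per line 0 of these genes passed. Of the T cell markers 1 of 10, Cd5, was lower in the male lines, by 1.97 (edgeR adjusted p = 0.0169), and their sum was not tested. The factors on class II promoters, the endosomal genes and the class I genes had 0 calls by edgeR in this comparison.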

How the data were processed

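Total RNA of 24 tumors (500 ng per library) was sequenced after depletion of ribosomal RNA. Per the labels and the study's methods, the authors aligned reads to GRCm38 with STAR 2.6.0a and deposited RSEM 1.3.1 estimated counts per gene (expected counts), not normalized. Reads were prepared with CASAVA 1.8.2. Of the values, 12.5% were not whole, and counts were rounded. Annotation matched 99.6% of gene identifiers.

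Levels were CPM on TMM library sizes, and log2 CPM used a prior count of 2. Comparisons used edgeR 4.0.16 (R 4.3.3; limma 3.58.1) with filterByExpr, glmQLFit and glmQLFTest on the tumors compared, adjusted by Benjamini-Hochberg over all genes tested. All 7 genes were tested in each comparison. Named were these 7, genes of each list by level (the 3 most abundant) or by a count of 5 or fewer calls, 5 cell markers, and the genes most like the 7. Genes beyond that rule (H2-Eb2, H2-Ea-ps, the epithelial genes, Cd3d, Cd3g and Icos) were chosen after their values were seen. The members and lists were chosen with earlier results of these data known. Fits were tested on simulated data in which tumors were drawn independently, with a common spread for all genes and no effect of the donor. That test does not cover genes as variable within lines as these 7, or tumors that share a donor.

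Alternatives were DESeq2 1.42.0, its size factors, a minimum of 10 counts per tumor, no minimum, a single fit of the 24 tumors, C102-M1 counted as BURP-21BaSq, counts summed per line, and each tumor left out in turn. Floors cover counting error only, while SDs and SEs cover the spread between tumors. Normal bladder was not analysed here, and 1 gene of the interferon-gamma list is not reported here.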

Additional observations from a re-analysis of the deposited data

How the results depend on the processing

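Leaving out single tumors moved the number of class II genes called between 0 and 1 across the 8 lines (main count 0), 0 and 3 across the 6 Ba/Sq lines (0), 0 and 1 in BURP-19NE against Ba/Sq (1), 0 and 6 in BURP-16SR against BURP-19NE (0) and 0 and 1 in BURP-24BaSq against BURP-16SR (0). Tumors that did so were P5 of BURP-16SR, P4 of BURP-18BaSq and the 3 of BURP-19NE, named with the results. DESeq2 called 3 in BURP-19NE against Ba/Sq and 2 in BURP-16SR against BURP-19NE, and the fit of all 24 tumors called 0 and 1. Moving C102-M1 into BURP-21BaSq left 0 members called across the 8 and the 6 lines. The causes were not tested. Signs turned when 1 tumor was left out in BURP-16SR against Ba/Sq for H2-Aa (-0.83 to 0.64), H2-Ab1 (-0.82 to 0.42), H2-Eb1 (-0.30 to 0.73) and Cd74 (-0.70 to 0.74), in BURP-16SR against BURP-19NE for H2-Eb1 (-0.0666 to 1.04), and in BURP-24BaSq against BURP-16SR for H2-Aa (-0.26 to 1.23), H2-Ab1 (-0.25 to 1.01), H2-Eb1 (-0.40 to 0.64), Cd74 (-0.48 to 0.99) and Ciita (-0.96 to 0.0895). Between the sexes the count stayed at 0 under all alternatives run. Counts over all genes moved more: at least 10 counts in every tumor gave 9457 calls in place of 16409 across lines, 2001 in place of 5108 in BURP-19NE and 1594 in place of 4029 in BURP-16SR (2670 when C73-M10 alone was left out), and between the sexes 191 in place of 414, against 768 by DESeq2, 1473 with all 24 tumors and 0 summed per line. Without the 3 BURP-16SR tumors, 5 of the 10 genes most like the members remained among the top 10. Of 112 line levels under other scalings, 105 moved by less than 1 SD. No paired analysis was possible because codes such as M3 and M30 recur in the names of tumors of several lines, in some lines more than once, and no source used here says that they mark shared animals or days. Depth limits the lowest levels, since Ciita in P5 of BURP-16SR rests on 9 counts.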
